A study of Rattus norvegicus with 18 samples.

Results

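The genes described are 36 genes of the white adipocyte and of lipid synthesis, found by symbol among the 32883 genes of the deposited rat table from a list of 37 symbols, of which Mlxipl did not match. They cover 4 secreted factors, 5 regulators, 4 lipid droplet proteins, 3 uptake and transport proteins, 3 lipases, 3 enzymes of glycerol and glycogen supply, 5 of triglyceride assembly, 5 of fatty acid synthesis and 4 of elongation and desaturation. RNA was sequenced from untreated hearts of healthy male Sprague Dawley rats, as whole tissue pieces of the superior sinoatrial node (sSAN, 4 libraries), the inferior sinoatrial node (iSAN, 4), the left ventricle (LV, 2), the left atrium (LA, 4) and the right atrium (RA, 4). The age was 59 days for rats 1 and 2 and 70 days for rats 3 and 4, from which both LV pieces came. Node pieces were cut by hand at positions learned from optical mapping of other hearts, and a step to remove fat is not described in the sources used here. Libraries are called by the rat that the ending of their titles points to. Levels are CPM, counts divided by the scaled size of the library, given as mean ± SD over rats. Calls are of edgeR's quasi-likelihood test, at an adjusted p under 0.05. In pieces of mixed tissue, fewer cells of a type and less RNA per cell cannot be told apart.

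White adipocytes store triglyceride in a single large droplet coated by perilipin, release fatty acids through a chain of lipases and secrete hormones such as adiponectin and leptin. Their identity is kept by the transcription factors PPARG and CEBPA, and sterol and carbohydrate responsive factors drive the enzymes that turn citrate into fatty acids. Heart muscle mostly takes fatty acids from the blood, through lipoprotein lipase on the capillary wall, and burns them, so that some of these genes are also active in cardiomyocytes or in the vessels between them. Fat also lies on the outer surface of the heart and around the great veins.

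Total counts were 17334954 to 24252103 per library. The node labels were checked on Shox2, a transcription factor of the sinoatrial node, which was at 28.2 to 59.1 CPM in the sSAN and 44.0 to 47.6 CPM in the iSAN, against 1.06 to 3.95 CPM in the RA. Transcripts of the mitochondrial genome took 24.1 to 40.8% of counts in the sSAN, 19.1 to 28.0% in the iSAN, 35.0 to 35.4% in the LV, 18.6 to 20.5% in the LA and 16.4 to 18.8% in the RA. Together the 36 genes took 0.59 to 2.53% of the counts in the sSAN and 0.303 to 1.64% in the iSAN, against 0.208 to 0.235% in the RA. They took 0.426 to 0.451% in the LV and 0.261 to 0.302% in the LA.

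Over the RA, 29 of the 36 genes were called higher in the sSAN, where 13.8% of the 14038 genes tested were called higher. None was called lower (background 8.48%), 5 did not pass the test and 2, Adig and Elovl6, had too few counts to be tested. In the iSAN 23 were called higher than in the RA (background 10.4%) and none lower (background 6.16%), 11 did not pass and the same 2 were not tested. Genes that are near 0 in the RA could be tested only through their node libraries. The 24 members with at least 10 counts in every RA library do not have this limit. Of these, 19 were called higher in the sSAN (79.2%), beside 12.6% of the 13120 genes measured that way, and 13 in the iSAN (54.2%), beside 9.21% of 13121. Their median log2 fold change was 2.88 in the sSAN, where that of all such genes was 0.01, and 1.65 in the iSAN, where it was -0.01. Both comparisons share the RA libraries. With rat as a block, 16 of these 24 were higher in the sSAN test (66.7%, beside 11.6% of the genes measured that way) and 4 in the iSAN test (16.7%, beside 10.3%). Over all members the iSAN count fell to 14 with the block, where 11.6% of all genes were called higher. Leaving out 1 library gave 10 without RA rat 4, 12 without RA rat 3, 13 without RA rat 1, 14 without RA rat 2 and 15 without iSAN rat 3. Over all genes, leaving out 1 library gave 1002 to 1795 called higher in the iSAN. DESeq2 called 30 members higher there, beside 1797 of 14066 genes. The heat map of all members shows their levels library by library.

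**Figure D1:**
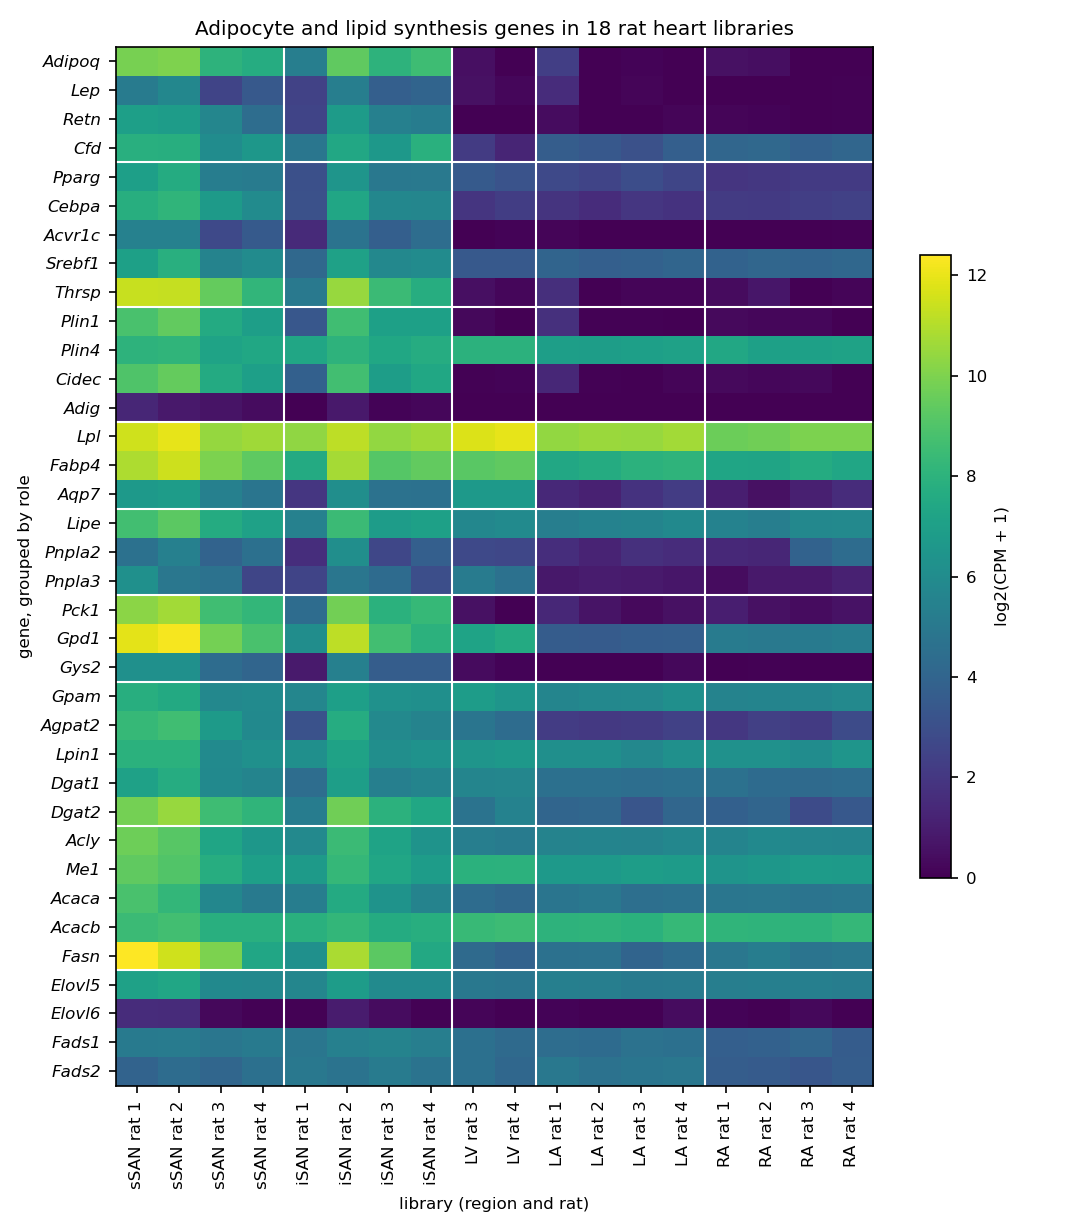
Level of each member, as log2(CPM + 1), in the 18 libraries ordered by region and rat, with white lines between regions and between roles. Adipoq ranges between 38.4 and 1015 CPM in the node libraries and lies at or below 4.02 CPM in the LV, LA and RA, while Plin4, Lpl and Acacb are high in every region.

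Upstream sequence was available for 26 of the 36 genes (RefSeq, build GRCr8, first listed start of each gene). The 150 bases before the start are shown for 5 genes called higher in the sSAN, of which 4, all but Acly, passed in the iSAN test too. Adipoq, Pck1 and Gys2 were under 2 CPM in every RA library, and Acly and Fads1 were measurable there. Capitals mark matches, on either strand, to CCAAT (or its complement ATTGG) and to AGGTCA (or TGACCT).
Adipoq, chr11:91240170-91240319, minus strand: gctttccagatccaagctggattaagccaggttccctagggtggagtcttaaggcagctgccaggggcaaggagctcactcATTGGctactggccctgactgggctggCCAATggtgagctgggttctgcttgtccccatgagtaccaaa
Pck1, chr3:182348422-182348571, plus strand: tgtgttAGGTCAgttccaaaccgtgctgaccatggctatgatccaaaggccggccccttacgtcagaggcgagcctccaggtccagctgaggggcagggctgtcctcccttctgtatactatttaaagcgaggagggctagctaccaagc
Gys2, chr4:177137237-177137386, minus strand: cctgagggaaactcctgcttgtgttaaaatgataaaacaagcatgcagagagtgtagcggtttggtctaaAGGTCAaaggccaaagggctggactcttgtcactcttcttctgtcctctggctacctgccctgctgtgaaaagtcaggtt
Acly, chr10:85963632-85963781, minus strand: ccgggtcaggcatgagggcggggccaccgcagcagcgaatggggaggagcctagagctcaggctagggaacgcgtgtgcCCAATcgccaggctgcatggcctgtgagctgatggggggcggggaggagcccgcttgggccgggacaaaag
Fads1, chr1:216252542-216252691, plus strand: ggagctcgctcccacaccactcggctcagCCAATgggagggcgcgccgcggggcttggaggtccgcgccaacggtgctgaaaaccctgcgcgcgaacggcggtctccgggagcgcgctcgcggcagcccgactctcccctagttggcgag
In the 250 bases before the start, CCAAT was present in 12 of 26 members (46.2%) and in 34.3% of the 27457 genes of the table. AGGTCA was present in 5 of 26 (19.2%) and in 13.7% of all genes, TATAAA in 1 (3.85%) and 13.1%, CACGTG in 1 (3.85%) and 5.79%, and TCACNCCAC in none and 0.976%. Matches in these 5 stretches do not overlap each other. A match describes the letters only. Adipoq holds CCAAT on both strands, 69 and 42 bases before its start, and Gys2 holds AGGTCA 80 bases before its start.

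All 4 secreted factors of the fat cell were called higher in both nodes. Adipoq, which encodes adiponectin (ENSRNOG00000001821, chromosome 11, 81330293 to 81344488, minus strand), was at 930.3, 1015, 261 and 203 CPM in sSAN rats 1 to 4 and 38.4, 662, 259 and 376 CPM in iSAN rats 1 to 4, against 0.478, 0.386, 0 and 0 CPM in RA rats 1 to 4. The groups did not overlap, and the lowest node library was iSAN rat 1. The log2 fold change was 11.42 (SE 1.00, edgeR adjusted p = 6.6e-04) in the sSAN and 10.58 (SE 1.32, edgeR adjusted p = 0.00333) in the iSAN. Retn, the hormone resistin, was at 78.4 ± 51.1 CPM in the sSAN and 48.2 ± 44.1 CPM in the iSAN, against 0.0718 ± 0.0618 CPM in the RA. Lep, the satiety hormone leptin, had 1 count in the 4 RA libraries together, so that its fold rests on that count. The ratio was 2082 in the sSAN (95% counting interval 373 to 82260.3) and 1360.0 in the iSAN (244 to 53753), intervals that cover counting error only. Cfd, the complement factor adipsin, was present in the RA as well, at 150.2 ± 82.8 CPM in the sSAN and 133 ± 90.9 CPM in the iSAN, against 15.8 ± 1.74 CPM in the RA (log2 fold change 3.27 and 3.11, edgeR adjusted p = 0.00211 and 0.0195). Its deposited span shares 1728 bases with Arhgap45 on the same strand, and Srebf1, Lipe and Gys2 overlap Rai1, AC121639.1 and Spx on the opposite strand, so these counts are uncertain (the strand setting is not given in the sources used here). With rat as a block, Cfd lost its call in the iSAN (edgeR adjusted p = 0.0793).

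All 5 regulators were called higher in both nodes. Cebpa, which with PPARG sets the adipocyte program (ENSRNOG00000010918, chromosome 1, 91363492 to 91366164, plus strand), was at 218, 274, 109 and 62.6 CPM in sSAN rats 1 to 4 and 7.59, 164, 53.2 and 50.7 CPM in iSAN rats 1 to 4, against 3.54, 3.33, 3.95 and 4.33 CPM in RA rats 1 to 4. The 4 RA libraries were close together, and iSAN rat 1 lay nearest to them. Its log2 fold change was 5.47 (SE 0.50, edgeR adjusted p = 7.0e-04) in the sSAN and 4.20 (SE 0.91, edgeR adjusted p = 0.0239) in the iSAN. The iSAN call was lost with rat as a block (edgeR adjusted p = 0.0777). Pparg was at 99.5 ± 78.6 CPM in the sSAN and 39.4 ± 34.6 CPM in the iSAN, against 3.09 ± 0.228 CPM in the RA (log2 fold change 5.02 and 3.68). Srebf1, the sterol regulatory factor that drives fatty acid synthesis genes, was at 116 ± 80.7 CPM in the sSAN and 67.4 ± 49.5 CPM in the iSAN, against 15.3 ± 1.28 CPM in the RA (log2 fold change 2.94 and 2.16). Pparg and Srebf1 also lost the iSAN call with the block (edgeR adjusted p = 0.0525 and 0.106). Thrsp, the thyroid hormone responsive protein of lipogenic cells, was at 2630.1, 2547, 713 and 289 CPM in sSAN rats 1 to 4 and 31.0, 1444, 349 and 209 CPM in iSAN rats 1 to 4, against 0 to 0.675 CPM in the RA (log2 fold change 12.44 and 10.83, edgeR adjusted p = 7.0e-04 and 0.00804). Acvr1c, the activin receptor ALK7 of fat cells, had 1 RA count and a ratio of 2115 in the sSAN (379 to 83593) and 1184 in the iSAN (212 to 46805).

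Among lipid droplet proteins, Plin1, the perilipin that guards the adipocyte droplet (ENSRNOG00000015086, chromosome 1, 141458181 to 141471010, minus strand), was at 458, 691, 192 and 125 CPM in sSAN rats 1 to 4 and 9.48, 394, 132 and 132 CPM in iSAN rats 1 to 4, against 0.239, 0.145, 0.145 and 0 CPM in RA rats 1 to 4. Its log2 fold change was 11.39 (SE 0.88, edgeR adjusted p = 4.7e-04) in the sSAN and 10.26 (SE 1.60, edgeR adjusted p = 0.00763) in the iSAN. Cidec, which enlarges droplets by fusing them, was at 384 ± 271 CPM in the sSAN and 176 ± 166 CPM in the iSAN, against 0.144 ± 0.103 CPM in the RA, and was likewise lowest of the node libraries in iSAN rat 1. Plin4, a perilipin found on small droplets, behaved otherwise. It was at 211 ± 64.3 CPM in the sSAN and 197 ± 44.8 CPM in the iSAN, against 144 ± 19.5 CPM in the RA, with overlapping groups and log2 fold changes of 0.57 (SE 0.21, edgeR adjusted p = 0.0813) in the sSAN and 0.48 (SE 0.15, edgeR adjusted p = 0.0582) in the iSAN. Adig, or adipogenin, was scarce, at 1.48, 0.822, 0.595 and 0.336 CPM in sSAN rats 1 to 4 and 0, 0.772, 0.0812 and 0.147 CPM in iSAN rats 1 to 4, with no count in any RA, LA or LV library. Against a floor of 3 counts over the 4 RA libraries the sSAN level was at least 23.2-fold higher and the iSAN level at least 6.12-fold higher.

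All 3 uptake genes passed as higher in the sSAN test and 2 in the iSAN test. Aqp7, the aquaglyceroporin through which glycerol crosses the membrane (ENSRNOG00000009686, chromosome 5, 57358327 to 57372239, minus strand), was at 105, 116, 41.2 and 27.5 CPM in sSAN rats 1 to 4 and 2.93, 68.1, 25.0 and 23.6 CPM in iSAN rats 1 to 4, against 1.05, 0.482, 1.11 and 1.95 CPM in RA rats 1 to 4. The sSAN log2 fold change was 5.98 (SE 0.63, edgeR adjusted p = 0.00113) and the iSAN one 4.71 (SE 1.00, edgeR adjusted p = 0.0230), lost with rat as a block (edgeR adjusted p = 0.0688). Fabp4, the fatty acid binding protein of adipocytes and capillary endothelium, was at 1598 ± 993 CPM in the sSAN and 787 ± 645 CPM in the iSAN, against 167 ± 22.6 CPM in the RA. It was called higher in the sSAN (log2 fold change 3.27, edgeR adjusted p = 0.00238), and in the iSAN its value of 2.25 missed the threshold (edgeR adjusted p = 0.0508). Lpl, lipoprotein lipase, was at 2470.3 ± 1222 CPM in the sSAN and 1644 ± 486 CPM in the iSAN, against 915 ± 112 CPM in the RA, a log2 fold change of 1.45 (SE 0.32, edgeR adjusted p = 0.0136) in the sSAN and 0.87 (SE 0.18, edgeR adjusted p = 0.0107) in the iSAN.

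The lipases differed among themselves. Pnpla3, which acts on droplet triglyceride and retinyl esters (ENSRNOG00000022268, chromosome 7, 125034764 to 125055976, plus strand), was at 74.2, 29.7, 24.5 and 5.00 CPM in sSAN rats 1 to 4 and 4.74, 27.9, 19.3 and 6.78 CPM in iSAN rats 1 to 4, against 0.334, 0.771, 0.772 and 1.24 CPM in RA rats 1 to 4. The groups did not overlap, and the log2 fold change was 5.43 (SE 0.84, edgeR adjusted p = 0.00412) in the sSAN and 4.24 (SE 0.71, edgeR adjusted p = 0.00842) in the iSAN. Lipe, hormone-sensitive lipase, was at 342 ± 221 CPM in the sSAN and 161 ± 134 CPM in the iSAN, against 48.4 ± 8.31 CPM in the RA and was called in the sSAN (log2 fold change 2.84, edgeR adjusted p = 0.00478) but not in the iSAN (1.75, edgeR adjusted p = 0.0993). Pnpla2, the adipose triglyceride lipase that takes the first fatty acid, was at 24.1, 42.0, 14.2 and 22.8 CPM in sSAN rats 1 to 4 and 2.11, 68.1, 5.20 and 12.6 CPM in iSAN rats 1 to 4, against 1.67, 1.49, 14.2 and 19.7 CPM in RA rats 1 to 4. Its RA libraries split by rat, with rats 3 and 4 above rats 1 and 2, and its log2 fold changes of 1.49 (SE 0.78) and 1.25 (SE 1.28) did not pass (edgeR adjusted p = 0.207 and 0.574).

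The genes of glycerol and glycogen supply were all called higher in both nodes. Pck1, the cytosolic enzyme that opens glyceroneogenesis in fat (ENSRNOG00000028616, chromosome 3, 171213936 to 171219871, plus strand), was at 1231, 1661, 383 and 295 CPM in sSAN rats 1 to 4 and 19.9, 876, 243 and 321 CPM in iSAN rats 1 to 4, against 1.05, 0.482, 0.338 and 0.523 CPM in RA rats 1 to 4. The log2 fold change was 10.54 (SE 0.85, edgeR adjusted p = 5.1e-04) in the sSAN and 9.25 (SE 1.41, edgeR adjusted p = 0.00715) in the iSAN. Gpd1, which makes glycerol 3-phosphate from a glycolytic intermediate, was at 3817, 4834, 915 and 457 CPM in sSAN rats 1 to 4 and 66.4, 2344, 408 and 250.4 CPM in iSAN rats 1 to 4, against 35.2, 30.9, 32.6 and 37.1 CPM in RA rats 1 to 4. Its log2 fold change was 6.22 (SE 0.81, edgeR adjusted p = 0.00226) in the sSAN and 4.51 (SE 1.13, edgeR adjusted p = 0.0385) in the iSAN, where the block ended the call (edgeR adjusted p = 0.163). Gys2, the glycogen synthase of liver and fat, had 1 RA count, with a ratio of 3861 in the sSAN (692 to 152527) and 1241 in the iSAN (222 to 49057).

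In triglyceride assembly, 3 of 5 genes passed as higher in the sSAN test and 2 in the iSAN test. Dgat2, a final acyltransferase that works with newly made fatty acids (ENSRNOG00000016573, chromosome 1, 164113459 to 164143818, minus strand), was at 915, 1453, 379 and 275 CPM in sSAN rats 1 to 4 and 35.8, 842, 251 and 169.8 CPM in iSAN rats 1 to 4, against 12.8, 15.5, 6.17 and 9.75 CPM in RA rats 1 to 4. Its log2 fold change was 6.11 (SE 0.65, edgeR adjusted p = 0.00118) in the sSAN and 4.89 (SE 1.01, edgeR adjusted p = 0.0204) in the iSAN. Agpat2, which adds the middle acyl chain, was at 220.0 ± 161 CPM in the sSAN and 79.6 ± 87.9 CPM in the iSAN, against 4.20 ± 1.36 CPM in the RA (log2 fold change 5.72 and 4.25). For both genes the iSAN call was lost with the block (edgeR adjusted p = 0.0810 and 0.0776). Dgat1, the other final acyltransferase, passed in the sSAN test and not in the iSAN test, at 111 ± 72.1 CPM in the sSAN and 58.7 ± 45.8 CPM in the iSAN, against 20.4 ± 2.46 CPM in the RA (log2 fold change 2.46 and 1.54, edgeR adjusted p = 0.00724 and 0.0987). Gpam, which starts the pathway on mitochondria, and Lpin1, the phosphatidate phosphatase, passed in neither node. Gpam was at 129 ± 83.7 CPM in the sSAN and 81.7 ± 32.3 CPM in the iSAN, against 49.3 ± 4.43 CPM in the RA, and Lpin1 was at 155 ± 101 CPM in the sSAN and 90.8 ± 33.5 CPM in the iSAN, against 77.1 ± 8.99 CPM in the RA.

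Of the 5 fatty acid synthesis genes, 4 passed as higher in the sSAN test and 1 in the iSAN test. Fasn, fatty acid synthase (ENSRNOG00000045636, chromosome 10, 109987735 to 110005901, minus strand), was at 5448, 2921, 1003 and 159 CPM in sSAN rats 1 to 4 and 73.2, 1834, 629.9 and 178 CPM in iSAN rats 1 to 4, against 29.7, 37.9, 26.4 and 28.9 CPM in RA rats 1 to 4. Every node library lay above every RA library. Within the sSAN, rats 1 and 2 were highest and rat 4 lowest. The log2 fold change was 6.29 (SE 1.01, edgeR adjusted p = 0.00451) in the sSAN and 4.48 (SE 1.05, edgeR adjusted p = 0.0313) in the iSAN, where the block ended the call (edgeR adjusted p = 0.118). Acly, which cleaves citrate to acetyl-CoA, Acaca, the cytosolic acetyl-CoA carboxylase, and Me1, the malic enzyme that supplies NADPH, passed in the sSAN test and not in the iSAN test (sSAN log2 fold change 3.01, 2.92 and 1.97, edgeR adjusted p = 0.0133, 0.0305 and 0.0211). With the block none of these 3 passed in the sSAN test (edgeR adjusted p = 0.0518, 0.121 and 0.0886). In the iSAN Acly was at 158 ± 131 CPM, Acaca at 88.4 ± 69.5 and Me1 at 171 ± 91.4. The RA values were 51.8 ± 4.63, 28.2 ± 1.23 and 99.6 ± 11.2 CPM in that order. DESeq2 called Acly and Acaca higher in the iSAN. In edgeR 4 of the 5 genes had an unadjusted p under 0.05 there, beside 4284 of 14066 genes. Acacb, the mitochondrial carboxylase whose product restrains fat burning in muscle, was at 300.2 ± 88.3 CPM in the sSAN and 238 ± 42.1 CPM in the iSAN, against 277 ± 18.7 CPM in the RA, with log2 fold changes of 0.13 (SE 0.19) and -0.20 (SE 0.11) that did not pass (edgeR adjusted p = 0.673 and 0.277). Without iSAN rat 2, Acacb was called lower in the iSAN (log2 fold change -0.32, edgeR adjusted p = 0.0261).

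The 3 elongation and desaturation genes that could be tested were called higher in both nodes, by 0.77 to 1.42 (sSAN) and 0.90 to 1.54 (iSAN) on the log2 scale. Fads1, the delta-5 desaturase of polyunsaturated fatty acids (ENSRNOG00000020480, chromosome 1, 226234074 to 226249138, plus strand), was at 33.0, 35.1, 28.3 and 32.5 CPM in sSAN rats 1 to 4 and 28.0, 41.7, 45.2 and 38.9 CPM in iSAN rats 1 to 4, against 12.5, 13.6, 16.3 and 11.4 CPM in RA rats 1 to 4, a log2 fold change of 1.27 (SE 0.13, edgeR adjusted p = 7.0e-04) in the sSAN and 1.54 (SE 0.16, edgeR adjusted p = 3.9e-04) in the iSAN. Fads2, the delta-6 desaturase beside it (ENSRNOG00000020440, chromosome 1, 226114413 to 226152524, minus strand), was at 14.5, 19.8, 16.2 and 23.0 CPM in sSAN rats 1 to 4 and 30.1, 25.7, 34.3 and 25.2 CPM in iSAN rats 1 to 4, against 11.7, 10.9, 9.11 and 11.7 CPM in RA rats 1 to 4. Its log2 fold change was 0.77 (SE 0.16, edgeR adjusted p = 0.00998) in the sSAN and 1.44 (SE 0.12, edgeR adjusted p = 1.7e-04) in the iSAN. Elovl5, an elongase of polyunsaturated chains, was at 103 ± 54.3 CPM in the sSAN and 71.4 ± 29.3 CPM in the iSAN, against 38.7 ± 1.39 CPM in the RA and was called in both (log2 fold change 1.42 and 0.90, edgeR adjusted p = 0.0226 and 0.0365). Elovl6, the elongase of palmitate, was at 1.95, 1.88, 0.198 and 0.0480 CPM in sSAN rats 1 to 4 and 0.0431, 0.938, 0.325 and 0.0491 CPM in iSAN rats 1 to 4, against 0.0955, 0, 0.193 and 0 CPM in RA rats 1 to 4, and was not tested.

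**Figure D2:**
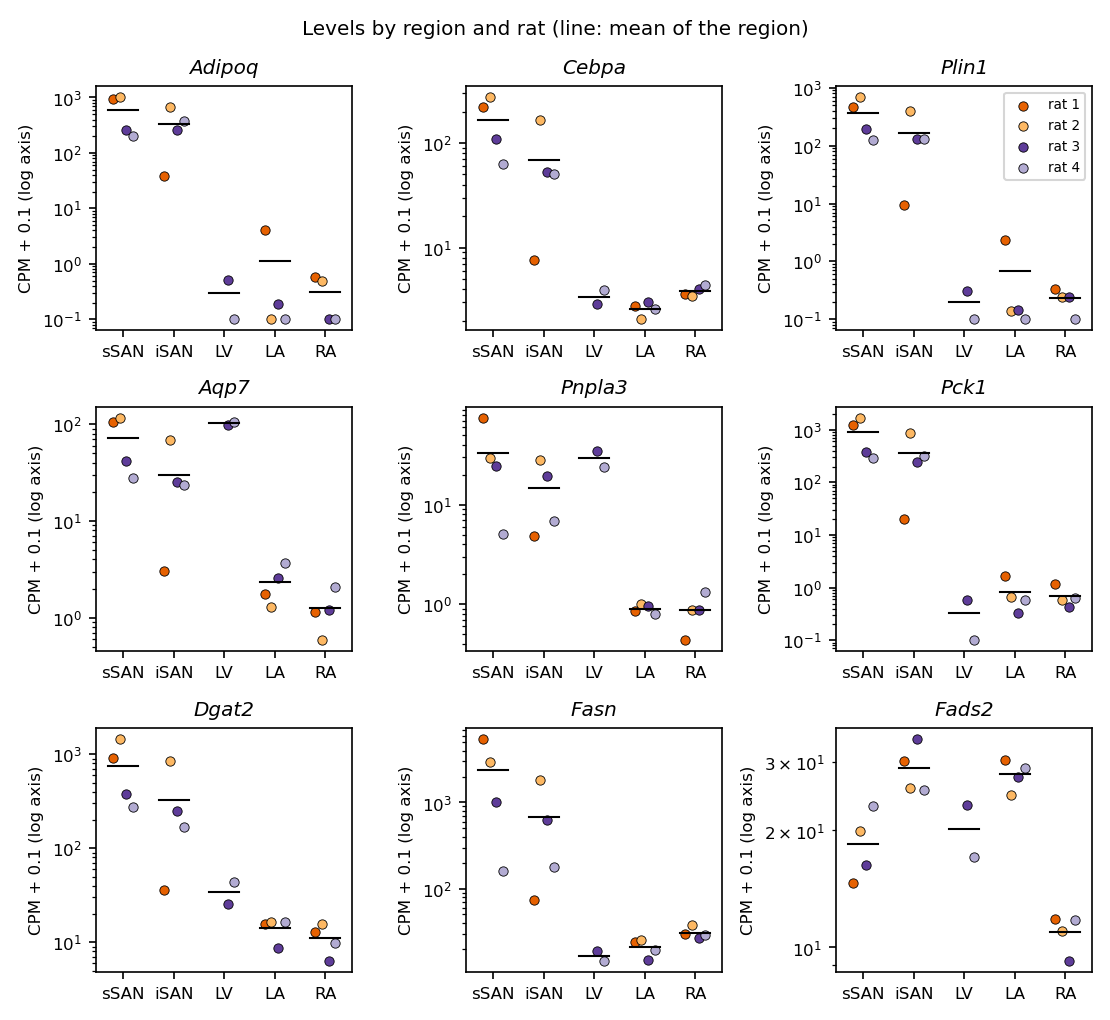
CPM plus 0.1 on log axes for 9 genes, by region, with a point for each rat and a line at the mean of the region. iSAN rat 1 is the lowest node library in 8 of the 9 panels, Aqp7 and Pnpla3 are as high in the LV as in the nodes, and for Fads2 the sSAN lies below the iSAN.

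**Figure D3:**
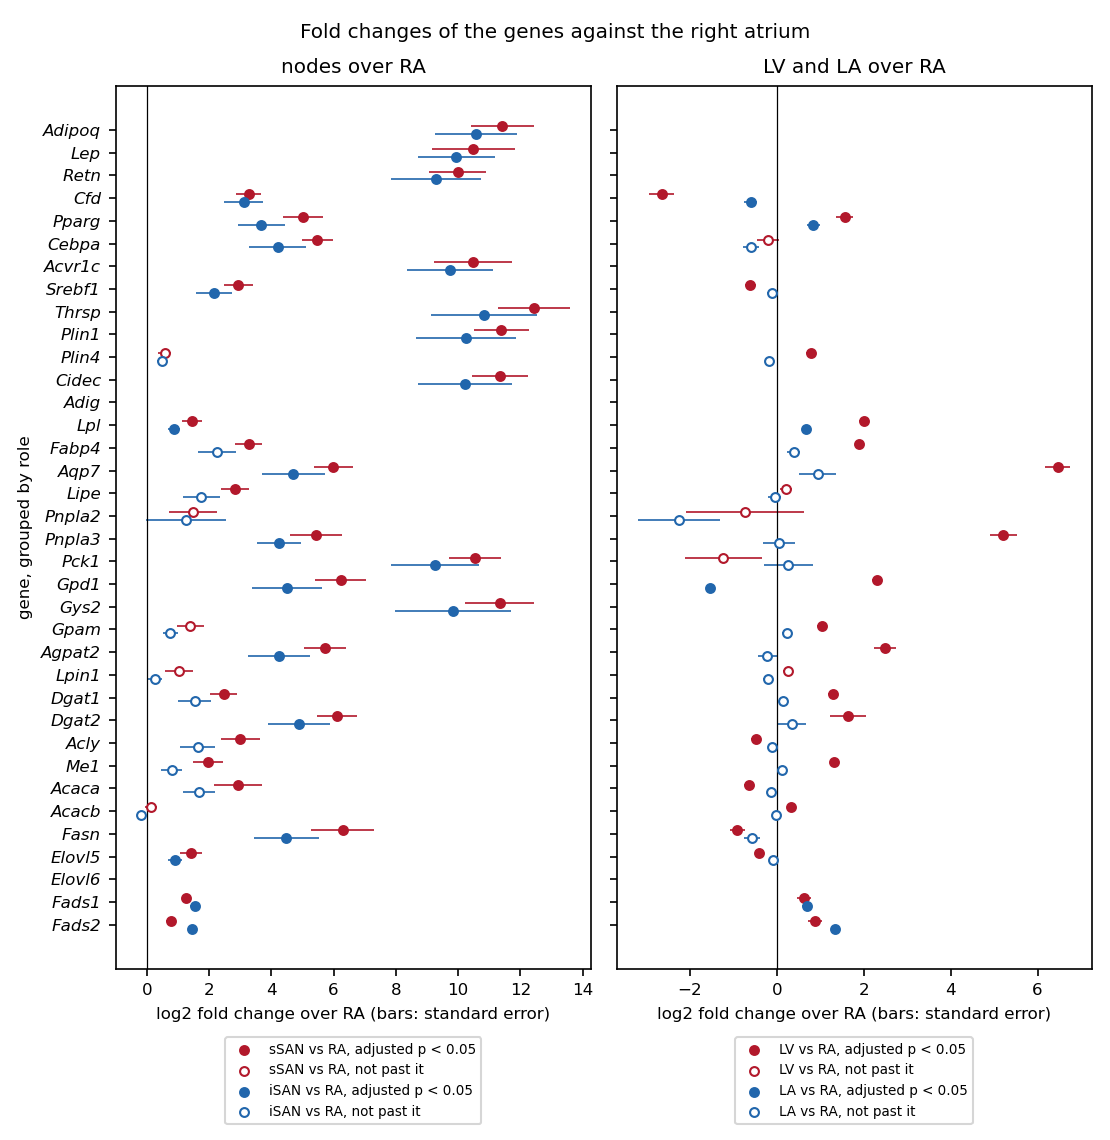
log2 fold change of each tested member over the RA, with bars for the standard error, for the sSAN and iSAN in the left panel and the LV and LA in the right, where filled points had an edgeR adjusted p under 0.05. Node values run up to 12.44 for Thrsp in the sSAN, and the LV panel holds called values on both sides of 0.

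No member was called between the sSAN and the iSAN (edgeR, 35 tested), and 1 had an unadjusted p under 0.05. In edgeR 0% of all 14301 genes were called higher and 0.00699% lower. DESeq2 called 1 member, beside 71 of the 14301 genes called higher and 76 lower. That member was Fads2 in both tools, and all 4 sSAN libraries lay below all 4 iSAN libraries (log2 fold change -0.66 (SE 0.16, edgeR adjusted p = 0.362)). It was lower in the sSAN in 4 of 4 rats, and Fads1 was lower in 3 of 4. The median log2 fold change over the 35 members was 1.08, beside -0.0041 over all genes, with Adipoq at 0.85 (SE 0.83), Fasn at 1.81 (SE 1.20) and Gpd1 at 1.71 (SE 1.14), none past the test.

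Within rats the sSAN and iSAN differed by unequal amounts. On log2(CPM + 0.1), 35 of 36 members were higher in the sSAN in rat 1, 33 in rat 2, 24 in rat 3 and 15 in rat 4. The median difference was 3.83 in rat 1, 0.74 in rat 2, 0.33 in rat 3 and -0.05 in rat 4. The pairs were read from title endings. For rat 1 the deviations of the sSAN and iSAN from their region means did not correlate (-0.016), so this pair is uncertain. The highest node library was sSAN rat 2 for 19 members and sSAN rat 1 for 13. The exceptions were Pnpla2, highest in iSAN rat 2, Fads1 and Fads2, highest in iSAN rat 3, and Cfd, highest in iSAN rat 4. iSAN rat 1 was the lowest node library for 31 of 36 members. These counts share the libraries and are a description. Leaving out iSAN rat 1 raised the members called higher in the iSAN over the RA to 30, against 23 with it. Over all genes it raised the calls to 1795 of 14267, against 1463 of 14066. The members added were Fabp4, Lipe, Dgat1, Acly, Acaca, Gpam and Plin4.

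**Figure D4:**
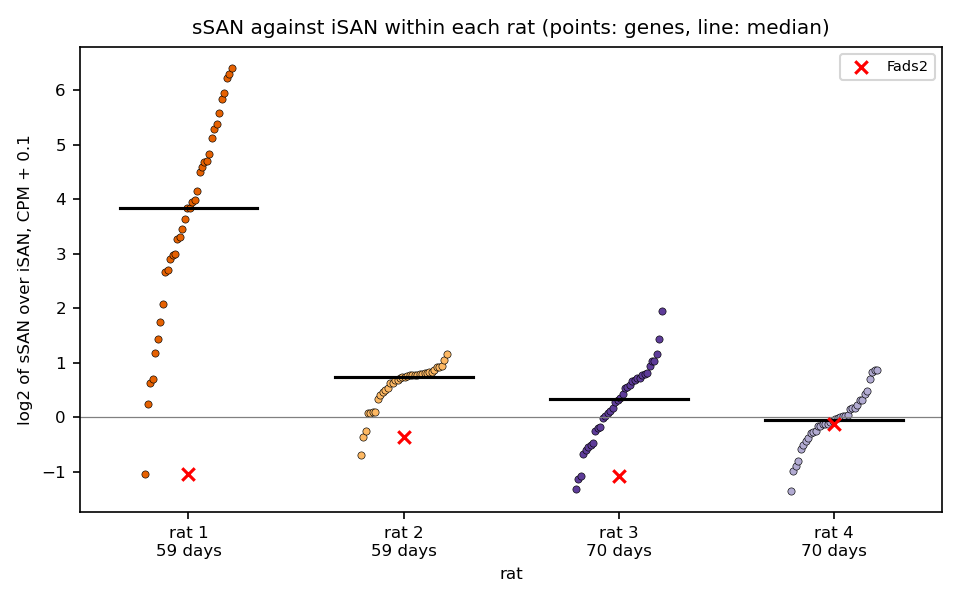
log2 ratio of the sSAN over the iSAN in each rat, on CPM plus 0.1, with a point for each of the 36 members, a line at their median and a cross for Fads2. The median lies between 3.83 in rat 1 and -0.05 in rat 4, and the cross lies below 0 in every rat. Rats are read from title endings, and the pair of rat 1 is uncertain.

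Age was examined as an interaction term in the same fit. In the sSAN, 14 of 34 members had a fold change over the RA that differed by age, where 2.17% of all genes did, and for all 14 the fold change was lower in the 70-day rats. They were Gpam, Lpin1, Dgat1, Me1, Acaca, Acacb, Acly, Elovl5, Lpl, Lipe, Pnpla2, Pparg, Gpd1 and Cfd. For Gpam the difference was -1.99 on the log2 scale (edgeR adjusted p = 0.00199), with 216, 184, 54.6 and 59.7 CPM in sSAN rats 1 to 4 and 45.2, 47.3, 49.1 and 55.5 CPM in RA rats 1 to 4. For Acaca it was -3.06 (edgeR adjusted p = 0.0205), and its sSAN levels were 466, 293, 53.3 and 32.7 CPM in rats 1 to 4. In the iSAN no member passed this test (edgeR, 0 of 34, and 0 at an unadjusted p under 0.05), and 0% of all genes did. The errors were wide there, such as 6.10 (SE 8.22) for Adipoq and -1.91 (SE 2.08) for Gpd1. The median difference was -0.49 on the log2 scale, with 23 of 34 members below 0, beside -1.78 and 29 of 34 in the sSAN. The test therefore cannot show that the iSAN lacks an age difference. Fitted alone, the 59-day rats gave 35 of 36 members higher in the sSAN test, beside 2024 of 14210 genes. In the iSAN test these rats gave none of 34 members (edgeR, 8 at an unadjusted p under 0.05), beside 26 of 14161 genes, and iSAN rats 1 and 2 lay far apart. The 70-day rats gave 24 of 34 members in the sSAN, beside 924 of 14179 genes, and 26 of 34 in the iSAN, beside 1174 of 14314. With 2 rats of each age, age cannot be told apart from other differences between the rats.

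Levels of different genes can be set side by side only per length, on the deposited FPKM. Fabp4 led in both nodes, at 2360.0 ± 1285 FPKM in the sSAN and 1365 ± 1024 FPKM in the iSAN. In the sSAN it was followed by Thrsp (1143 ± 889), Gpd1 (788 ± 646) and Lpl (619 ± 259.9), whose spreads overlap. In the RA Fabp4 and Lpl led, at 291 ± 32.3 and 266 ± 27.9 FPKM, with Me1 next at 45.2 ± 4.49. Relative to Adipoq in the same node library, some genes kept a narrow range of FPKM over the 8 libraries. Retn was 0.204 to 0.403 times Adipoq, Cidec 0.287 to 0.621 times and Pparg 0.0758 to 0.175 times, while Adipoq itself varied 21.3-fold. Other ranges were wider, such as Lpl at 1.43 to 15.4 times, Plin4 at 0.109 to 1.67 times and Fads2 at 0.0193 to 0.971 times. Fasn ranged between 0.0872 and 1.08 times. Ucp1, the uncoupling protein that marks brown fat, was 0.0597 to 2.14 times Adipoq.

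**Figure D5:**
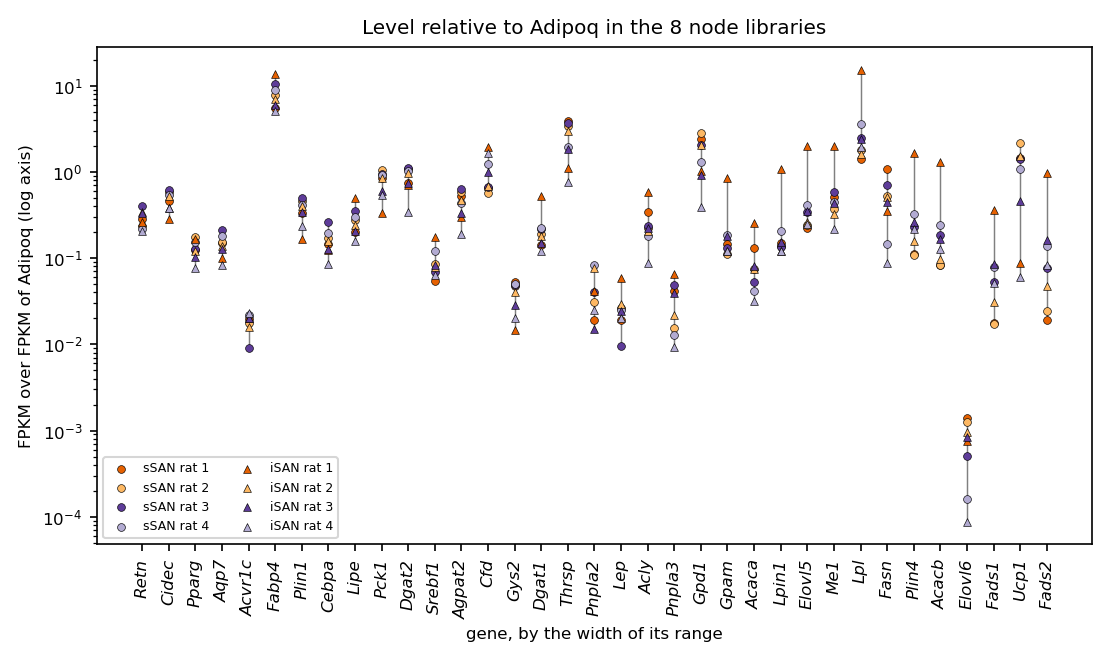
FPKM of each member divided by FPKM of Adipoq in the same library, on a log axis, for the 8 node libraries (circles for the sSAN, triangles for the iSAN, colors for rats), ordered by the width of the range. Retn and Cidec have the narrowest ranges, 1.97-fold and 2.16-fold, and Fads2 the widest, 50.2-fold, with Ucp1 shown for comparison and Adig left out because it had no count in iSAN rat 1.

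Muscle expression was described as a level of at least 1 CPM in the LV, LA and RA libraries. Of the 36 members, 23 reached it in all 10 of these libraries. They were Cfd, Pparg, Cebpa, Srebf1, Plin4, Lpl, Fabp4, Lipe, Pnpla2, Gpd1, Gpam, Agpat2, Lpin1, Dgat1, Dgat2, Acly, Me1, Acaca, Acacb, Fasn, Elovl5, Fads1 and Fads2. Another 5 members, Retn, Acvr1c, Adig, Gys2 and Elovl6, reached it in none. The remaining 8 reached it in some. Adipoq, Lep, Thrsp, Plin1 and Cidec did so in LA rat 1 alone, at 4.02, 1.97, 2.22, 2.26 and 1.59 CPM, and Pck1 in LA rat 1 and RA rat 1. Aqp7 reached it in 9 libraries, and Pnpla3 in both LV libraries and in 1 RA library. Among the 23 genes present in all muscle libraries, 18 passed as higher over the RA in the sSAN test (background 13.8%) and 12 in the iSAN test (background 10.4%). With rat as a block these counts were 15 (65.2%, beside 1804 of all 14038 genes) and 4 (17.4%, beside 1627 of all 14066 genes).

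The LV differed from the RA in 21 of the 26 members tested. In it 15 were called higher (background 23.5%) and 6 lower (background 22.7%). Aqp7 was at 99.5 and 105 CPM in LV rats 3 and 4, against 1.05, 0.482, 1.11 and 1.95 CPM in RA rats 1 to 4, a log2 fold change of 6.46 (SE 0.29, edgeR adjusted p = 6.5e-06), and the LV level was within the range of the sSAN. Pnpla3 was at 34.5 and 24.0 CPM in the LV, against 0.334 to 1.24 CPM in the RA (log2 fold change 5.21 (SE 0.32, edgeR adjusted p = 4.1e-06)). Lpl was at 3418 and 4016 CPM in the LV, against 797, 842, 1011 and 1010.1 CPM in RA rats 1 to 4 (log2 fold change 2.02). Every LV library lay above every RA library for these 3 genes, and also for Fabp4, at a log2 fold change of 1.90. The acyltransferases Agpat2, Dgat2, Dgat1 and Gpam were higher by 2.49, 1.63, 1.29 and 1.03 on the log2 scale, and Gpd1, Pparg and Me1 by 2.30, 1.56 and 1.31. Smaller called rises were in Fads2 (0.88), Plin4 (0.78), Fads1 (0.62) and Acacb (0.33). Both LV pieces came from 70-day rats. In the 70-day rats alone 13 members were called higher and 7 lower, beside 2737 and 2397 of 13794 genes. Fads1 and Acacb lost their calls in that fit (edgeR adjusted p = 0.0554 and 0.0640).

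Lower calls in the LV were near the share of all genes, at 6 of the 24 members measured in the RA (25%, beside 24.0%). Of the 5 fatty acid synthesis genes, 3 were called lower there (Fasn, Acaca and Acly) and 2 higher (Me1 and Acacb, given above). Over all genes tested 22.7% were called lower and 23.5% higher. Fasn was at 18.6 and 14.2 CPM in LV rats 3 and 4, against 29.7, 37.9, 26.4 and 28.9 CPM in RA rats 1 to 4 (log2 fold change -0.91 (SE 0.17, edgeR adjusted p = 0.00187)). Acaca, Srebf1, Acly and Elovl5 were also called lower, with log2 fold changes of -0.64, -0.61, -0.49 and -0.40. Cfd had the most negative fold change of the members, at 3.45 and 1.47 CPM in the LV, against 16.0, 17.5, 13.4 and 16.2 CPM in RA rats 1 to 4 (log2 fold change -2.65 (SE 0.28, edgeR adjusted p = 5.8e-05)). Lipe, Cebpa, Lpin1, Pck1 and Pnpla2 did not pass, and with rat as a block Pnpla2 was called lower (-1.59, edgeR adjusted p = 5.8e-04). The 70-day rats alone also gave a lower call for Pnpla2 (-1.62, edgeR adjusted p = 8.1e-04). When all 5 regions entered 1 fit, 9 members were called higher and 1 lower, beside 3161 and 2760 of 15248 genes. There Fasn, Acaca, Acly, Srebf1 and Elovl5 lost their lower calls, and Acacb, Dgat1, Dgat2, Gpam, Gpd1 and Pparg lost their higher ones.

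Between the atria, 4 of 26 members tested were called higher in the LA (background 4.37%) and 2 lower (background 4.26%). Fads2 was at 30.3, 24.6, 27.3 and 28.9 CPM in LA rats 1 to 4, against 11.7, 10.9, 9.11 and 11.7 CPM in RA rats 1 to 4 (log2 fold change 1.35 (SE 0.10, edgeR adjusted p = 8.0e-06)). Fads1 was at 20.7, 18.9, 24.8 and 22.8 CPM in the LA, against 12.5, 13.6, 16.3 and 11.4 CPM in the RA (log2 fold change 0.69 (SE 0.12, edgeR adjusted p = 0.00308)). Both desaturases lay above every RA library. Lpl was at 1333, 1498, 1424 and 1626 CPM in the LA, against 797, 842, 1011 and 1010.1 CPM in the RA (log2 fold change 0.68 (SE 0.09, edgeR adjusted p = 5.8e-04)). Pparg was at 5.73, 4.91, 6.54 and 5.08 CPM in the LA, against 2.82, 2.99, 3.28 and 3.28 CPM in the RA (log2 fold change 0.84 (SE 0.15, edgeR adjusted p = 0.00379)). These groups did not overlap either. Gpd1 was at 11.3, 10.9, 12.1 and 12.6 CPM in the LA, against 35.2, 30.9, 32.6 and 37.1 CPM in the RA, and was lower in every LA library (log2 fold change -1.54 (SE 0.08, edgeR adjusted p = 5.4e-07)). Cfd was at 11.7, 9.86, 7.44 and 12.7 CPM in the LA, against 16.0, 17.5, 13.4 and 16.2 CPM in the RA (log2 fold change -0.60 (SE 0.15, edgeR adjusted p = 0.0314)). The Cfd call was lost when RA rat 1, 2 or 4 or LA rat 2 was left out. With all 5 regions in the fit Lpl, Pparg, Gpd1 and Cfd lost their calls, which left 2 members higher and none lower. In that fit 318 of 15248 genes were called higher and 228 lower. With rat as a block 7 members were called higher and 5 lower, beside 1247 and 1245 of 13904 genes. The block added Gpam, Dgat2 and Aqp7 above the RA and Cebpa, Lpin1 and Fasn below it.

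Of 41 further genes of lipid handling, 40 were tested, and the sSAN test over the RA called 17 higher (42.5%, beside the 13.8% of all genes) and none lower. In the iSAN 5 were called higher (12.5%, beside 10.4%) and none lower. DESeq2 called 14 of the 40 there in either direction, beside 1797 of 14066 genes called higher and 1250 lower. In edgeR 21 of the 40 had an unadjusted p under 0.05, beside 4284 of 14066 genes. The median log2 fold change of the 40 was 0.77 in the sSAN, against 0.02 for all genes tested, and 0.35 in the iSAN, against 0.0068. Of those called, 12 in the sSAN test and 2 in the iSAN test had a log2 fold change above 1. Scd, a stearoyl-CoA desaturase that makes oleate, was among them, at 1369 ± 1495 CPM in the sSAN and 589 ± 541 CPM in the iSAN, against 3.36 ± 1.14 CPM in the RA (log2 fold change 8.68 and 7.47, edgeR adjusted p = 0.00317 and 0.00528). Plin3, a perilipin of many tissues, and Elovl1, an elongase of saturated chains, changed by under 1 on that scale (Plin3 0.78 and 0.38, Elovl1 0.76 and 0.52 in the sSAN and the iSAN). Between the nodes none was called (edgeR, 5 of 40 at an unadjusted p under 0.05, beside 1398 of 14301 genes). The 1 gene that passed in DESeq2, beside 71 of 14301 genes higher and 76 lower, was Gpihbp1, which carries lipoprotein lipase across endothelium. It also had the smallest p in edgeR, followed by Plin3 and Plin5, a perilipin of oxidative tissue. In the LV 12 of 40 were called higher (30%, beside 23.5% of all genes) and 11 of 40 lower (beside 22.7%). There Plin3 was at 1.56, Tecr, a reductase of chain elongation, at 1.15 and Nr1h3, the sterol receptor LXR alpha, at -1.80 on the log2 scale. In the LA 3 of 40 were called higher (7.5%, beside 4.37% of all genes) and 2 of 40 lower (beside 4.26%). There Tecr was at 0.51, Mgll, monoglyceride lipase, at 0.48 and Gpihbp1 at -0.55.

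Lists of marker genes of other cells were set beside the members, as counts called over the RA, where 13.8% of all genes were called higher and 8.48% lower in the sSAN test and 10.4% and 6.16% in the iSAN test. Ucp1, of brown adipocytes, was at 952, 1549.8, 262 and 156 CPM in sSAN rats 1 to 4 and 2.41, 729, 84.1 and 16.0 CPM in iSAN rats 1 to 4, against 0, 0.145, 0 and 0 CPM in RA rats 1 to 4, and of 9 brown adipocyte markers found 6 could be tested, of which 5 passed as higher in the sSAN test and 3 in the iSAN test. Their summed level was 803 to 2843 CPM in the sSAN and 359 to 1592 CPM in the iSAN, against 451 to 513 CPM in the RA. The 7 cardiomyocyte markers summed to 19932 to 51142 CPM in the sSAN and 35787 to 53343 CPM in the iSAN, against 70519 to 78937 CPM in the RA, with 2 of them called lower in the sSAN test and 4 in the iSAN test. Myh6, the alpha myosin heavy chain, was at 6996 to 13659 CPM in the sSAN and 11477 to 16588 CPM in the iSAN, against 21244 to 23891 CPM in the RA. In LV rats 3 and 4 Myh6 was at 22963 and 25294 CPM. The 8 fibroblast and preadipocyte markers summed to 5619 to 8588 CPM in the sSAN and 7543 to 10453 CPM in the iSAN, against 3379 to 4339 CPM in the RA, with 5 of them called higher in the sSAN test and all 8 in the iSAN test. Pdgfra, a defining marker of these cells, was at 106 to 184 CPM in the sSAN and 184 to 237 CPM in the iSAN, against 116 to 134 CPM in the RA. Of 6 macrophage markers 1 passed as higher in the sSAN test and 4 in the iSAN test, with summed levels of 109 to 323 CPM in the sSAN and 250.4 to 319.7 CPM in the iSAN, against 164 to 214 CPM in the RA, and Csf1r at 28.6 to 71.3, 67.2 to 82.4 and 43.1 to 57.5 CPM in that order. Endothelial markers summed to 693 to 861 CPM in the sSAN and 684 to 1031 CPM in the iSAN, against 837 to 981 CPM in the RA, overlapping it, and of 5 tested none was called higher and 1 lower in each node. The 6 Schwann cell and neuron markers summed to 68.1 to 537.5 CPM in the sSAN and 39.9 to 449 CPM in the iSAN, against 13.3 to 19.8 CPM in the RA, highest in sSAN rat 4. Of these markers, 5 of 6 tested were called higher in the sSAN test and 4 of 5 tested in the iSAN test, and none lower. Ucp1 was at 2.41 CPM in iSAN rat 1, where most members were lowest. The part of any of these cells in the results was not tested.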

How the data were processed

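RNA of 18 pieces of rat heart was sequenced, and per the methods the authors used HISAT2 for alignment and HTSeq 0.6.1 for counts per Ensembl gene. The deposited count values are raw, and the deposited FPKM values are the authors' own and equal count over length and total within 1% for 20 of 34 members. For the others the length used is unknown. The deposited table also holds log2 fold change and p-value columns of the authors' comparisons and 72 columns of normalized values, which were not used. Gene lengths are as deposited.

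Totals of 17334954 to 24252103 put 1 CPM near 20 counts. In R 4.3.3, edgeR 4.0.16 scaled the counts by TMM, filtered low counts and fitted a quasi-likelihood model with robust spread to the 2 regions compared, without a block for rat, with p adjusted by Benjamini-Hochberg over all genes tested. Each SE is the absolute log2 fold change divided by the square root of the F value of the edgeR test. A shared ending of the sample title was read as a shared rat. Over 12620 genes, deviations from the region means of the same rat correlated at 0.171 to 0.212 for the sSAN and RA, 0.140 to 0.322 for the iSAN and RA, 0.266 to 0.343 for the LA and RA and -0.016 to 0.569 for the sSAN and iSAN, where rat 1 was not above 0.1. The p-values measure only the spread between these samples.

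Alternatives were DESeq2 1.42.0, RLE scaling, no filter, all 5 regions in the fit, rat as a replicate block, each library left out, rat 2 left out, each age alone, and other minimum levels for muscle expression. The steps were tested on simulated data. Every member is named, with values per library for the member of smallest p in each role and for members called between nodes or atria. Of 41 other lipid genes the 3 of smallest p per comparison are named. The members and lists were chosen with earlier results of these data known. Figures were drawn in Python 3 from the results.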

Additional observations from a re-analysis of the deposited data

Results flagged for a closer look

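Of 118 groups of 4 libraries with a mean of at least 1 CPM, 8 held a library far from the other 3 by Dixon's ratio, where chance gives about 1 in 20. iSAN rat 2 stood alone at 68.1 CPM for Pnpla2, 2344 for Gpd1, 141 for Lpin1 and 115 for Elovl5. LA rat 1 stood alone at 4.02 CPM for Adipoq. LA rat 3 stood alone at 53.7 CPM for Lpin1, 21.2 for Dgat1 and 8.52 for Dgat2.

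The fold change of 14 genes in the sSAN over the RA differed between ages by the interaction term of edgeR, as the 70-day minus the 59-day value on the log2 scale. The differences were -4.25 for Pnpla2, -3.06 for Acaca, -2.74 for Gpd1, -2.39 for Acly, -2.36 for Pparg, -2.09 for Me1, -2.04 for Lipe, -1.99 for Gpam, -1.85 for Lpin1, -1.53 for Lpl, -1.52 for Dgat1, -1.37 for Elovl5, -1.31 for Cfd and -0.78 for Acacb. For Pnpla2 the RA itself differed, at 14.2 and 19.7 CPM in the 70-day rats, against 1.67 and 1.49 CPM in the 59-day rats. Each age holds 2 rats.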

How the results depend on the processing

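Over 2372 refits of single members, 2102 kept direction and side of the threshold, 169 lost a call, 56 gained one and 45 changed sign. No value passed the test after its sign changed. In the sSAN over the RA the sign changes were in Lpin1 (-0.20 in the 70-day rats) and Acacb (-0.32 in the 70-day rats, -0.065 without rat 2 and -0.055 to 0.25 over libraries left out). In the iSAN over the RA they were in Pnpla2 (-0.89 in the 70-day rats, -0.81 without rat 2 and -0.46 to 1.94 over libraries left out) and Lpin1 (-0.024 without rat 2 and -0.028 to 0.36 over libraries left out). Between the nodes the 70-day rats gave -0.48 for Adipoq, -0.90 for Lep, -0.16 for Retn, -1.10 for Cfd, -1.07 for Acvr1c, -0.12 for Srebf1, -0.27 for Plin4, -0.0073 for Lpl, -0.39 for Gpam, -0.18 for Lpin1, -0.59 for Acaca and -0.11 for Elovl5, and the 59-day rats gave -0.086 for Pnpla2. Over libraries left out, Lep ran between -0.071 and 1.27, Cfd between -0.18 and 0.60, Plin4 between -0.068 and 0.24 and Pnpla2 between -0.15 and 1.95 there. In the LA over the RA, Pnpla2 was at 0.11 in the 59-day rats, Pnpla3 at -0.36 in the 70-day rats and -0.018 without rat 2, and Acacb at 0.0069 in the 70-day rats. Over libraries left out, Lipe ran between -0.18 and 0.038, Pnpla3 between -0.21 and 0.36, Pck1 between -0.50 and 0.67, Agpat2 between -0.34 and 0.024 and Acacb between -0.11 and 0.030. In the LV Cebpa ran between -0.45 and 0.0092. Their causes were not tested.

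Members higher in the iSAN, beside 23, numbered 12 without rat 2, 14 with the replicate block and 18 with no filter. They numbered 25 with all 5 regions in the fit, 26 in the 70-day rats and 30 with DESeq2. They numbered 0 in the 59-day rats and 10 to 30 over single libraries left out, and 0 to 1 were lower (1 without rat 2, Acacb). In the sSAN, beside 29, they numbered 24 in the 70-day rats, 25 without rat 2, 26 with the replicate block, 28 with no filter, 31 with DESeq2, 33 with all 5 regions in the fit, 35 in the 59-day rats and 27 to 32 over libraries left out, with 0 lower in each. Between nodes DESeq2 called 1 lower, and leaving out libraries gave 0 in each direction. In the LA over the RA 2 were higher and 0 lower with all 5 regions in the fit, 7 and 5 with the replicate block, 4 lower with DESeq2, 1 lower without rat 2, 2 higher in the 70-day rats, and 4 to 5 and 1 to 2 over libraries left out. In the LV 9 were higher and 1 lower with all 5 regions, and 13 to 15 and 6 to 7 over libraries left out. Members under the minimum in every muscle library numbered 12 at 5 CPM and 9 at an FPKM of 1, beside 5. The replicate block changed no call between the nodes.

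Over all genes, calls higher and lower in the sSAN were 1010 and 741 without rat 2 and 924 and 786 in the 70-day rats, with 1947 lower in the fit of all 5 regions and 1179 to 2033 and 642 to 1430 over libraries left out. In the iSAN they were 26 and 5 in the 59-day rats, with 498 lower without rat 2, 496 lower in the 70-day rats and 1002 to 1795 and 432 to 1221 over libraries left out. Between nodes they were 71 and 76 with DESeq2, 6 and 14 with all 5 regions, 1 and 2 in the 70-day rats, 2 lower without rat 2, 0 in the 59-day rats and 0 to 4 lower over libraries left out. In the LA they were 318 and 228 with all 5 regions, 1247 and 1245 with the block, 359 and 346 without rat 2, 311 and 303 in the 59-day rats, 193 and 191 in the 70-day rats, and 435 to 517 and 419 to 502 over libraries left out. In the LV leaving out libraries gave 2646 to 3179 and 2304 to 3014. Leaving rat 2 out of the LV comparison equals leaving out RA replicate 2, as the LV has no rat 2. Where a fit has fewer libraries, calls can be lost with the fold unchanged, and genes under about 1 CPM carry wide counting error.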
